A study of Mus musculus with 12 samples.

Results

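Oleic acid (OA), a monounsaturated fatty acid that liver cells take up and store as triglyceride, was compared with no addition in primary mouse hepatocytes that received no drug. The comparison takes 6 of the 12 RNA sequencing libraries of the study, 3 of the OA group and 3 of the control group, chosen by their sample titles and by nothing measured in them. By the study's methods, the cells came from livers of male C57BL/6J mice aged 6 weeks, were freed with collagenase, purified over Percoll and cultured, and OA cells received 0.2 mM OA, complexed with bovine serum albumin, for 16 h. No allele or transgene is named for either group, and control cells received neither OA nor BBR. Whether they received the albumin carrier is not given in the sources used here, so an effect of OA and an effect of its carrier cannot be told apart. The labels name liver as the tissue of every library and do not say whether replicates are separate mice or separate wells, so the p-values below measure the spread between these libraries, which may be technical. The other 6 libraries received benzbromarone (BBR, a uric acid-lowering drug) at 15 µM, alone or with the same dose of OA. They were used here only to ask whether the drug changed the OA effect on the leading genes.

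Fatty acids that enter a hepatocyte are bound by carrier proteins, activated to acyl-CoA and then burned in mitochondria and peroxisomes, esterified and stored in lipid droplets, or exported in lipoproteins. They also act as signals. They are ligands of the PPAR nuclear receptors, which switch on oxidation genes, and they hold back the processing of SREBP1, the factor that drives the synthesis of new fatty acids. Hepatocytes in culture are known to lose part of their liver program over days, so the level of a liver gene in such cells is not its level in liver.

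Polyadenylated RNA was counted per gene, and levels between libraries are given as CPM, the usual per-library scaling of counts, with library sizes adjusted by TMM factors. Total counts ran from 17755414 to 23668371 per library, and between 14785 and 15144 features had a count. A count of 3, the most that a count of 0 allows, stood for 0.127 to 0.169 CPM, a limit that covers counting error only. Transcripts of mitochondrial genes held 6.01 to 6.89% of the counts, with overlapping ranges in the 2 groups. On the first principal component, which held 66.95% of the variance, the 3 control libraries lay at -27.0 to -25.6 and the 3 OA libraries at 24.3 to 27.5. OA replicate 1 and OA replicate 3 lay farthest apart on the second component, which held 10.12%. Hepatocyte transcripts dominated both groups, since the 10 hepatocyte markers summed to 43970.0 to 44978 CPM in control and 47164 to 49435 CPM in OA libraries. Markers of other liver cells were low but present. Kupffer cell markers summed to 106.7 to 122.8 CPM in control and 117.2 to 129.4 CPM in OA libraries, endothelial markers to 118.7 to 130.0 and 98.98 to 116.8 CPM, and stellate cell markers to 28.5 to 30.6 and 28.0 to 34.1 CPM. Of the lymphocyte markers, Cd3e, Cd3d, Ms4a1 and Nkg7 were at 0 in all 6 libraries, and the list summed to 1.05 to 1.39 and 1.19 to 1.76 CPM. Of the endothelial and the stellate markers tested (11 and 7), 1 was higher and 1 lower with OA in each list. By the test given below, 18.2% and 28.6% of them changed, against 42.8% of all genes tested.

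With 16 h of OA many genes changed, most of them by less than 2-fold. Of 12418 genes tested, 5311 (42.8%) passed the edgeR quasi-likelihood F test at 0.05 after Benjamini-Hochberg adjustment over all genes tested, and are called changed below. Changes are given as log2 fold changes of OA over control, ± their SE where single genes are tested. Where the text sets 3 CPM values against 3, the control libraries come first. The called genes divided into 2643 higher (21.3%) and 2668 lower (21.5%) with OA. The median size of a called change was 0.37 on the log2 scale. A change of at least 2-fold was reached by 617 genes, of which 216 rose and 401 fell, and a change of at least 4-fold by 59 rises and 39 falls. The even split between rises and falls depended on the scaling, since upper quartile scaling gave 2077 higher and 3216 lower (39.2% higher, against 49.8% by the main scaling). For 52.2% of the genes tested the CPM values of the 2 groups did not overlap. With so many genes called, each count of genes below is to be read beside these shares.

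Among the leading genes, the 10 largest rises and 10 largest falls at a mean of at least 5 CPM and with no overlap between the groups, the rises included enzymes of nitrogen, sulfur and drug metabolism. Cps1, the mitochondrial enzyme that commits ammonia to the urea cycle (plus strand of chromosome 1 from 67123026 to 67231259, mm10, as all coordinates here), stood at 19.5, 16.5 and 17.7 CPM in the control libraries and at 201, 171 and 162 CPM in the OA libraries. The groups lay far apart, and the rise was 9.96-fold (log2 fold change 3.32 ± 0.085, adjusted p = 2.36e-12). Cdo1, cysteine dioxygenase, which starts the breakdown of cysteine to taurine and sulfate, went from 34.3, 39.9 and 32.1 CPM to 334, 324 and 320.1 CPM (log2 fold change 3.20 ± 0.070, adjusted p = 3.07e-13). The phenobarbital-inducible P450 gene Cyp2b10 (chromosome 7 from 25897620 to 25926624, plus strand) was at 0.803, 0.762 and 1.01 CPM in control and 11.2, 10.9 and 15.01 CPM with OA (log2 fold change 3.83 ± 0.19, adjusted p = 3.52e-09). The sulfotransferase Sult1a1 rose from 4.12, 3.29 and 3.24 to 25.8, 19.3 and 22.1 CPM (log2 fold change 2.66 ± 0.13, adjusted p = 2.83e-09). Reads of near-identical family members could be shared with Cyp2b10, Sult1a1 and Serpina3m, so their levels carry that uncertainty.

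The remaining leading rises were genes of signaling, inflammation and the cytoskeleton. Adgrg2, an orphan adhesion receptor, had 0, 6 and 1 counts in the control libraries and 172, 181 and 141 counts with OA. Its control level lay near the floor, so no fold is given. Akap12, a scaffold that anchors protein kinase A, stood at 7.23, 8.43 and 7.03 CPM in control and 62.5, 67.03 and 52.6 CPM in OA libraries (log2 fold change 3.00 ± 0.10, adjusted p = 5.41e-11). Eif4ebp3, a relative of the translation repressors that bind the cap factor eIF4E, rose from 1.15, 0.476 and 0.842 to 10.5, 8.72 and 9.26 CPM (log2 fold change 3.52 ± 0.21, adjusted p = 1.44e-08). Krt20, an intestinal keratin, Serpina3m, an acute-phase protease inhibitor, and Marco, a macrophage scavenger receptor, completed the 10, with log2 fold changes of 2.50, 2.65 and 2.51. Marco is the only 1 of the 10 that also stands among the Kupffer cell markers below.

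The 10 largest falls were of several kinds, among them a secreted carrier, transporters, and matrix and adhesion proteins. Serpina7, which encodes thyroxine-binding globulin, a hormone carrier that liver secretes (chromosome X from 139079257 to 139085236, minus strand), dropped from 189.7, 194 and 215 CPM to 29.4, 38.8 and 43.3 CPM (log2 fold change -2.42 ± 0.10, adjusted p = 4.50e-10). The ATP-binding cassette transporter Abca8a stood at 6.73, 6.72 and 8.47 CPM in control and 1.65, 1.30 and 1.44 CPM in OA libraries (log2 fold change -2.32 ± 0.18, adjusted p = 1.56e-07). Abcc12, of a related transporter family, stood at 19.2, 18.6 and 20.5 against 3.81, 5.85 and 5.45 CPM (log2 fold change -1.94 ± 0.12, adjusted p = 2.46e-08). Col4a5, a basement membrane collagen chain, Cdh17, a cadherin of liver and intestine, and Matn2, a matrix adaptor protein, fell by 2.15, 2.04 and 1.89 on the log2 scale. The other 4 were Per3 of the circadian clock (fell by 2.09), the ubiquitin ligase Pdzrn3 (fell by 1.99), the elongation factor Tcea3 (fell by 1.93) and the carbonic anhydrase Car14 (fell by 1.88). That the groups are apart in these 20 genes follows from how they were chosen, and the size of the gap is what the values show.

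**Figure D1:**
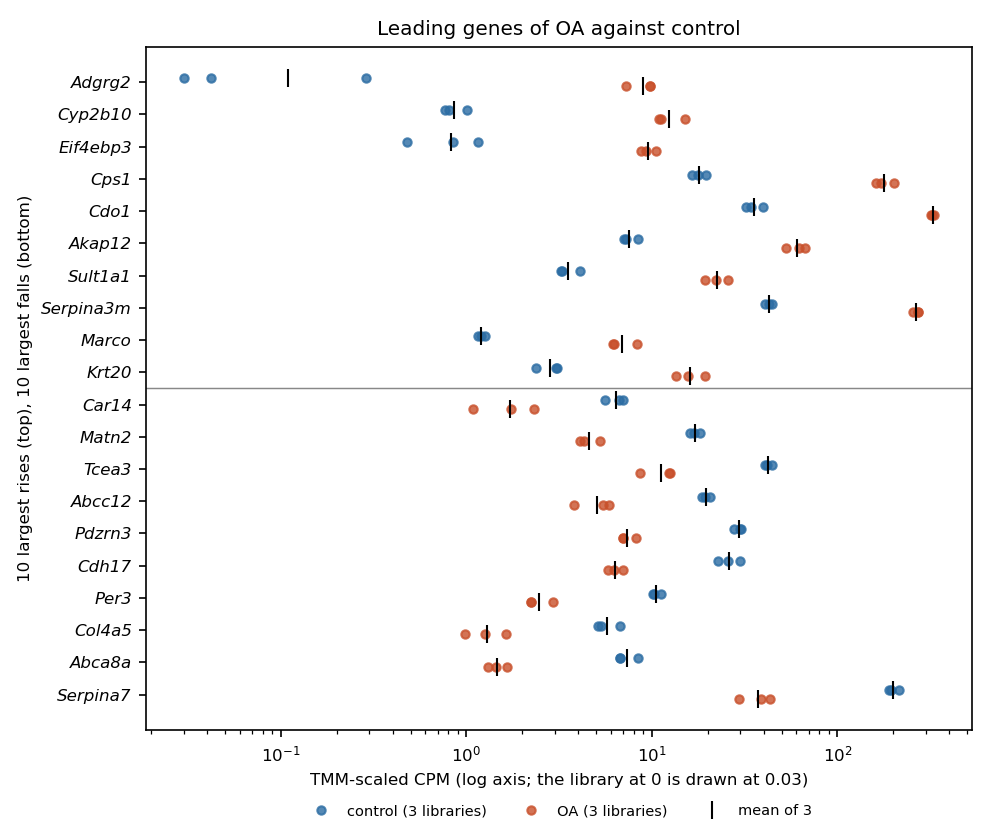
CPM (log axis) of the 10 largest rises (top) and 10 largest falls (bottom) in OA against control, with 1 point per library, 3 blue control and 3 red OA libraries per gene, and a tick at each mean. The 2 groups are separated in each of the 20 genes, from Adgrg2, with 0, 6 and 1 control counts, to Serpina7, whose mean went from 199.8 to 37.2 CPM.

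Genes were then grouped into 37 lists under metabolism, stress, inflammation, matrix and differentiation. The share of tested members that were called was 61.4% in metabolism, 73.8% in stress, 68.5% in inflammation, 65.0% in matrix and 60.9% in differentiation, each above the 42.8% of all genes tested. List genes were chosen with earlier results of these data known, and were not matched to other genes by level. These shares, and the ranking of lists that follows, are therefore a description and not a test. By the number of rises less falls over the members tested, the lists that leaned most to higher levels were the integrated stress response, the aminoacyl-tRNA synthetases, cholesterol synthesis and hypoxia-inducible genes. Those that leaned most to lower levels were NRF2 targets, interferon-response genes, conjugating enzymes, peroxisomal oxidation, fatty acid synthesis and complement and coagulation.

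**Figure D2:**
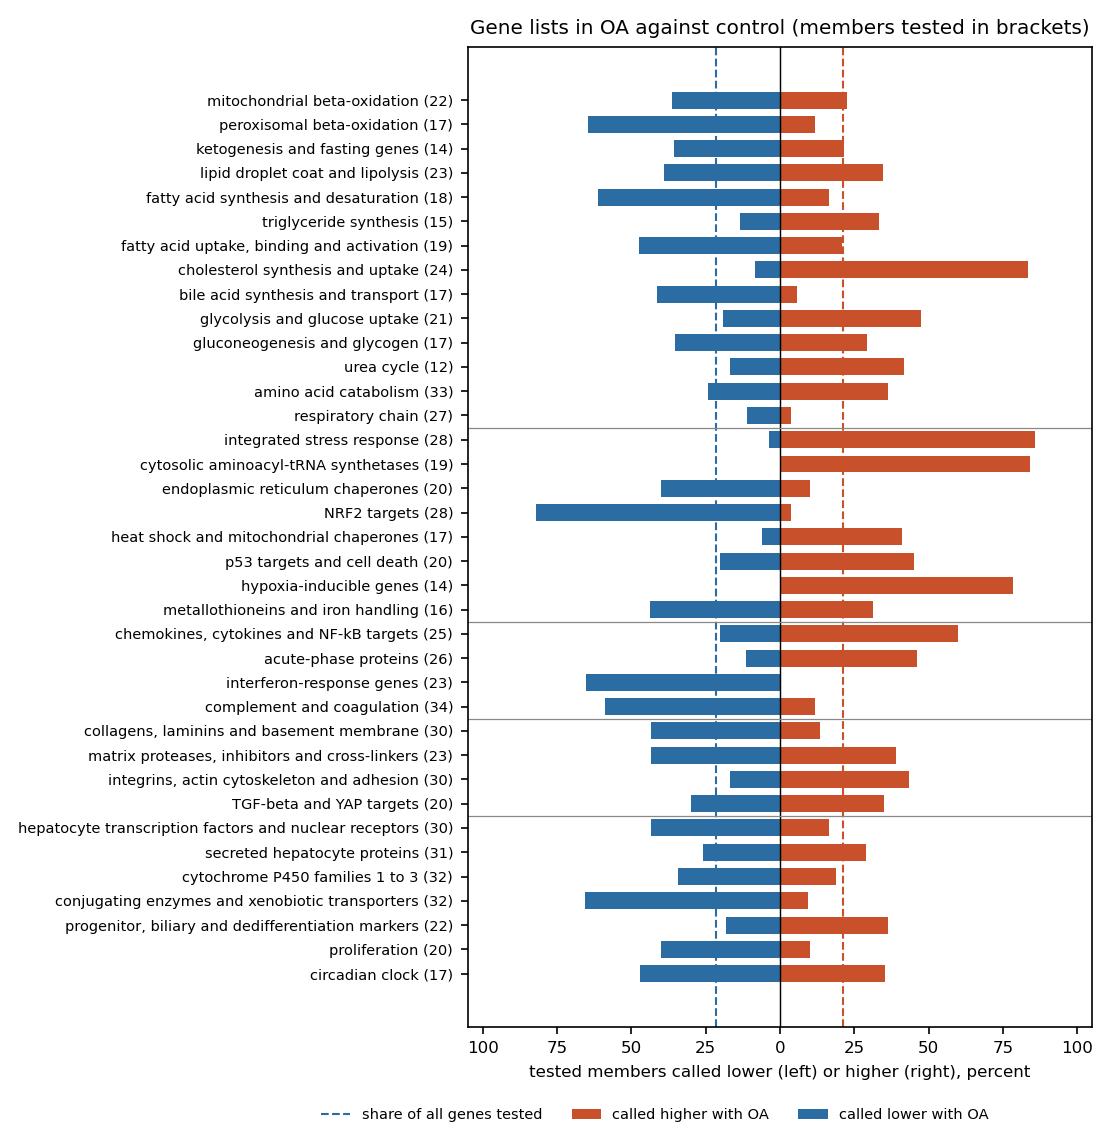
Percent of the tested members of each of the 37 gene lists that were called lower (blue, left) or higher (red, right) with OA, with the number tested in brackets and thin lines between the 5 themes. The dashed lines mark the shares of all genes tested, 21.5% lower and 21.3% higher. Integrated stress response genes (24 of 28 higher) and NRF2 targets (23 of 28 lower) stand at the ends.

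Lipid droplet coat and lipolysis genes gave 8 rises and 9 falls among 23 tested, with coat and droplet growth genes among the rises described here. The coat protein Plin2, the main perilipin of liver lipid droplets (chromosome 4 from 86648386 to 86670060, minus strand), stood at 999, 1012 and 904 CPM in the control libraries and 1292, 1289.8 and 1243 CPM in the OA libraries (log2 fold change 0.39 ± 0.055, adjusted p = 5.30e-05). Cidec, which fuses droplets into larger ones, stood at 6.33, 4.57 and 5.22 against 11.3, 10.6 and 10.6 CPM (log2 fold change 1.01 ± 0.12, adjusted p = 1.51e-05), and the droplet-bound dehydrogenase Hsd17b13 at 61.04, 75.5 and 74.8 against 128, 132 and 155 CPM (log2 fold change 0.97 ± 0.083, adjusted p = 4.82e-07). All 3 had every OA library above every control library. Plin4, a perilipin found in adipocytes, moved the other way, from 9.59, 11.3 and 9.77 to 3.93, 5.15 and 3.50 CPM (log2 fold change -1.29 ± 0.14, adjusted p = 6.14e-06). So did Mgll, the lipase that completes the breakdown of monoglyceride, from 11.9, 9.77 and 13.1 to 6.20, 3.58 and 6.99 CPM (log2 fold change -1.05 ± 0.18, adjusted p = 0.000303). Hilpda, a droplet inhibitor of lipolysis, and Pnpla3 rose as well (log2 fold changes 0.93 and 1.20), and G0s2, another inhibitor of lipolysis, fell by 0.73. These 3 genes were chosen after their values were seen.

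Genes of fatty acid uptake, binding and activation moved in both directions. Fabp4, the fatty acid binding protein of adipocytes and macrophages (chromosome 3 from 10204088 to 10208576, minus strand), stood at 16.2, 15.4 and 16.3 CPM in control and 64.6, 58.8 and 61.1 CPM in OA libraries (log2 fold change 1.95 ± 0.064, adjusted p = 4.93e-11). Acsl3, the acyl-CoA synthetase of growing lipid droplets, rose from 30.8, 30.2 and 30.9 to 40.1, 44.5 and 43.5 CPM (log2 fold change 0.48 ± 0.061, adjusted p = 2.39e-05). The transport proteins Slc27a2 and Slc27a1 fell by 0.88 and 0.67 on the log2 scale (adjusted p = 5.68e-07 and 7.10e-05). Cd36, the scavenger receptor for fatty acids, was low throughout, at 4.57, 4.10 and 3.71 CPM in control and 3.30, 2.60 and 2.83 CPM in OA libraries (log2 fold change -0.50 ± 0.17, adjusted p = 0.0275). Its call was lost without control replicate 1 (-0.42), control replicate 2 (-0.50), OA replicate 2 (-0.43) or OA replicate 3 (-0.48), by DESeq2 (-0.50) and in the fit of all 12 libraries (-0.51). Over the 19 tested genes of uptake, binding and activation, 4 rose and 9 fell, with a median log2 fold change of -0.19. Triglyceride synthesis genes were called about as often as all genes (46.7% against 42.8%), with 5 of 15 higher and 2 lower. Their median of 0.037 turned to -0.0099 under upper quartile scaling and -0.0011 without control replicate 3. Without control replicate 1 or OA replicate 2 the count of rises was 3. Gpam, the mitochondrial acyltransferase that starts the pathway, stood at 101.3, 102 and 102 CPM in control and 134, 132 and 132 CPM in OA libraries (log2 fold change 0.39 ± 0.045, adjusted p = 1.03e-05), while Dgat2, which adds the last acyl chain, stood at 72.4, 78.5 and 77.5 against 62.8, 60.96 and 66.997 CPM (log2 fold change -0.26 ± 0.055, adjusted p = 0.00169).

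Fatty acid synthesis and desaturation genes fell in 11 of 18 cases and rose in 3, with a median of -0.22. Scd1, the stearoyl-CoA desaturase whose main product is oleate itself (chromosome 19 from 44394455 to 44407879, minus strand), went from 3199, 2900.1 and 3228 CPM to 1599, 1488 and 1456 CPM (log2 fold change -1.04 ± 0.059, adjusted p = 1.18e-08), with the highest OA library below the lowest control library. On the length-scaled FPKM values, Scd1 stood above Plin2 in control (means of 650.9 and 534.6 FPKM) and below it with OA (309.0 and 678.8 FPKM). Acaca, the acetyl-CoA carboxylase that makes malonyl-CoA, stood at 211, 177 and 262 CPM in control and 89.9, 75.4 and 99.1 CPM in OA libraries (log2 fold change -1.30 ± 0.12, adjusted p = 8.44e-07). Elovl2, an elongase of polyunsaturated fatty acids, stood at 48.5, 46.4 and 54.3 against 21.7, 21.9 and 25.3 CPM (log2 fold change -1.11 ± 0.078, adjusted p = 7.78e-08). Fasn, the fatty acid synthase itself, was 1 of the 3 rises, from 168, 171 and 153 to 256, 260.4 and 217 CPM (log2 fold change 0.58 ± 0.068, adjusted p = 1.12e-05). The transcript of the regulator Srebf1 was at 98.3, 102 and 95.0 against 95.9, 101.2 and 92.3 CPM, with overlapping groups (log2 fold change -0.029 ± 0.052, adjusted p = 0.683).

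In contrast, cholesterol synthesis and uptake genes rose in 20 of 24 cases and fell in 2, with a median of 0.42 against -0.0060 for all genes. Sqle, squalene epoxidase, stood at 123, 126 and 122 CPM in control and 181, 185 and 173 CPM with OA (log2 fold change 0.54 ± 0.048, adjusted p = 6.87e-07). Hsd17b7, a reductase of the late pathway, had the largest rise of the list (log2 fold change 0.92 ± 0.066, adjusted p = 1.00e-07). The 2 members that fell, Tm7sf2 and Ebp, also act in the late steps (log2 fold changes -0.41 and -0.26). In each of these 4 genes the groups did not overlap.

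Oxidation genes moved in both directions. Of 22 mitochondrial beta-oxidation genes, 5 rose and 8 fell, a median of -0.021 that became 0.024 without control replicate 2. Cpt1a, the carnitine acyltransferase that controls entry into mitochondria, stood at 62.6, 69.8 and 58.3 CPM in control and 86.5, 79.8 and 73.4 CPM in OA libraries (log2 fold change 0.33 ± 0.072, adjusted p = 0.00195). The dehydrogenase Acadl rose (log2 fold change 0.60 ± 0.048, adjusted p = 2.83e-07), as did the thioesterase Acot2 (log2 fold change 0.79 ± 0.10, adjusted p = 1.98e-05), while Acaa2, a thiolase of the last step, went from 163, 168 and 173 to 101.2, 96.1 and 112 CPM (log2 fold change -0.70 ± 0.058, adjusted p = 3.49e-07). Peroxisomal genes leaned to lower levels, with 11 of 17 lower and 2 higher and a median of -0.30. Crot, which exports shortened chains from peroxisomes, stood at 203, 209 and 208 CPM in control and 100.1, 104 and 123 CPM in OA libraries (log2 fold change -0.92 ± 0.066, adjusted p = 9.13e-08), and the thiolase Acaa1b at 31.02, 24.1 and 25.02 against 12.7, 12.2 and 10.8 CPM (log2 fold change -1.16 ± 0.10, adjusted p = 7.72e-07).

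Among ketone body genes and genes that fasting and PPAR alpha are known to induce, 3 of 14 rose and 5 fell. Pdk4, which turns off pyruvate oxidation, rose from 9.59, 9.24 and 10.5 to 14.4, 15.9 and 11.8 CPM (log2 fold change 0.52 ± 0.11, adjusted p = 0.00180), and the lipase inhibitor Angptl4 from 90.4, 84.3 and 76.9 to 122, 113 and 112 CPM (log2 fold change 0.46 ± 0.061, adjusted p = 3.32e-05). Creb3l3, a membrane-bound factor of the fasting response, rose as well (log2 fold change 0.77 ± 0.058, adjusted p = 1.55e-07). The ketone body enzyme Bdh1 fell from 10.3, 8.53 and 9.56 to 3.87, 2.87 and 4.52 CPM (log2 fold change -1.33 ± 0.15, adjusted p = 8.46e-06). Vnn1, a pantetheinase, fell most, from 23.3, 23.9 and 21.6 to 6.09, 6.07 and 6.89 CPM (log2 fold change -1.85 ± 0.091, adjusted p = 2.83e-09). Fgf21, a secreted fasting hormone, was near 1 CPM in both groups, with overlapping libraries (log2 fold change -0.091 ± 0.42, adjusted p = 0.881). Among the receptors, Ppara stood at 4.77, 4.86 and 5.64 CPM in control and 7.97, 7.64 and 7.92 CPM with OA, a rise (log2 fold change 0.62 ± 0.12, adjusted p = 0.000871), and Pparg at 12.8, 13.6 and 12.05 against 7.97, 8.13 and 8.79 CPM, a fall (log2 fold change -0.62 ± 0.10, adjusted p = 0.000129).

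**Figure D3:**
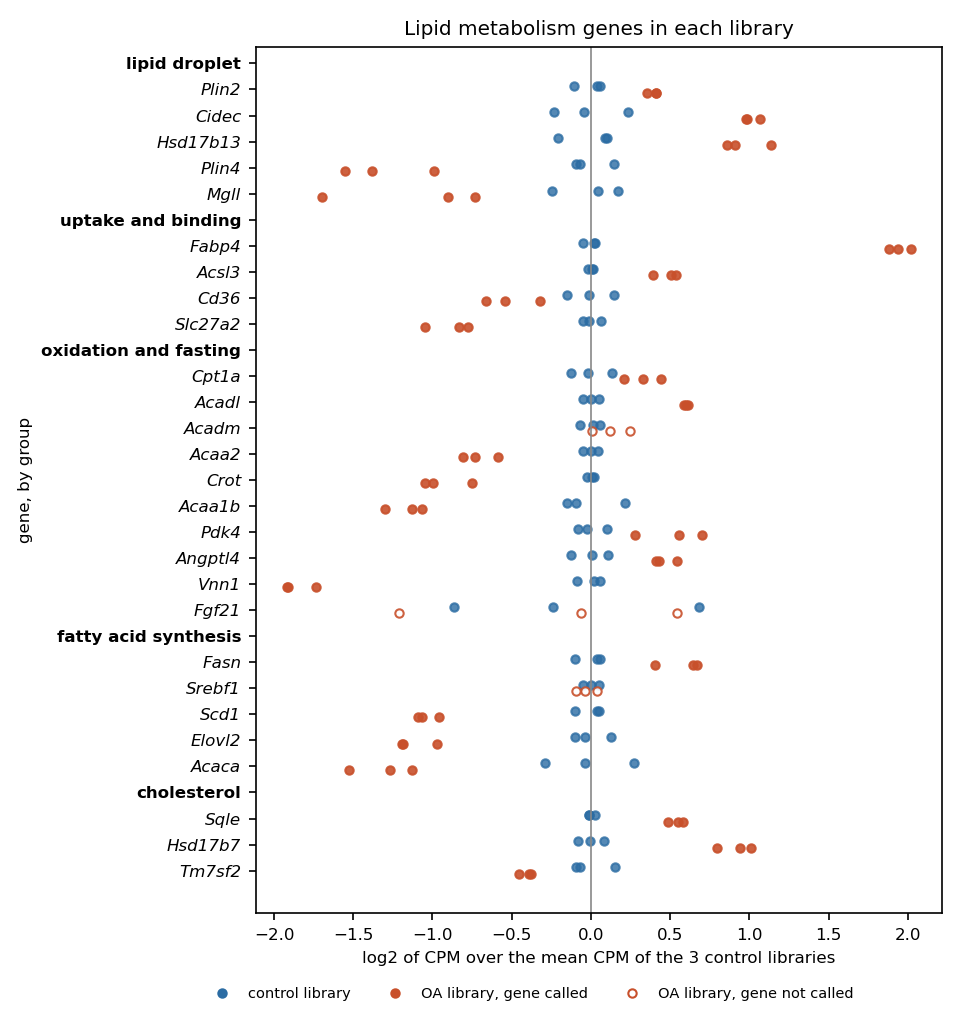
log2 of CPM over the mean of the 3 control libraries for lipid metabolism genes, with 1 point per library, control in blue and OA in red, with open OA points where the gene was not called. Fabp4 (log2 fold change 1.95) and the cholesterol genes Sqle and Hsd17b7 lie to the right, and Scd1, Elovl2, Acaca and Vnn1 (-1.85) to the left. The groups overlap for Acadm, Fgf21 and Srebf1, none of them called.

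In central carbon metabolism, 10 of 21 glycolysis and glucose uptake genes rose and 4 fell. The glucose transporter Slc2a1 stood at 179, 209 and 189 CPM in control and 281, 315 and 266 CPM in OA libraries (log2 fold change 0.58 ± 0.068, adjusted p = 1.15e-05), and the platelet-type phosphofructokinase Pfkp at 146, 161 and 157 against 222, 229.9 and 218 CPM (log2 fold change 0.53 ± 0.051, adjusted p = 1.62e-06). Both are forms that other tissues use more than adult liver does. The muscle-type phosphofructokinase Pfkm fell (log2 fold change -0.95 ± 0.089, adjusted p = 1.19e-06). The pyruvate carboxylase gene Pcx, which feeds gluconeogenesis, went from 115, 122 and 118 to 71.0, 67.7 and 67.9 CPM (log2 fold change -0.78 ± 0.050, adjusted p = 2.82e-08), and Fbp1, fructose bisphosphatase, fell by 0.73. Among the rises were Slc37a4, which carries glucose-6-phosphate into the endoplasmic reticulum, from 22.3, 20.5 and 25.7 to 33.8, 27.7 and 40.5 CPM (log2 fold change 0.57 ± 0.12, adjusted p = 0.00114), and Pck1, which makes phosphoenolpyruvate, from 1.05, 0.857 and 0.8003 to 2.50, 1.30 and 1.95 CPM (log2 fold change 1.09 ± 0.29, adjusted p = 0.00756). G6pc, glucose-6-phosphatase, was at 11.1, 9.67 and 19.8 against 12.3, 10.4 and 17.3 CPM, with overlapping groups (log2 fold change -0.030 ± 0.22, adjusted p = 0.928). The gluconeogenesis and glycogen list held 5 rises and 6 falls among 17 genes, and its median of -0.030 became 0.11, 0.028 and 0.039 without control replicate 3, OA replicate 1 and OA replicate 2.

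Amino acid and nitrogen genes held some of the largest changes in metabolism. Besides Cps1, the urea cycle genes Arg1 and Ass1 rose, Arg1 from 10.7, 9.003 and 8.97 to 17.1, 16.9 and 17.4 CPM (log2 fold change 0.85 ± 0.091, adjusted p = 4.66e-06) and Ass1 from 125, 117 and 121 to 148, 149.7 and 157 CPM (log2 fold change 0.33 ± 0.049, adjusted p = 9.67e-05). Glul, glutamine synthetase, the other route of ammonia disposal, fell from 198, 174 and 193 to 108, 94.3 and 108 CPM (log2 fold change -0.86 ± 0.064, adjusted p = 1.32e-07), and Glud1, glutamate dehydrogenase, by 0.56. In all, 5 of 12 urea cycle and ammonia genes rose and 2 fell, and 3 rose without OA replicate 2. Cth, which makes cysteine from cystathionine, stood at 43.0, 42.3 and 42.4 CPM in control and 122, 108 and 107 CPM with OA (log2 fold change 1.40 ± 0.059, adjusted p = 5.81e-10), upstream of Cdo1 in the same route. Acmsd, of the tryptophan pathway, rose from 14.8, 16.9 and 12.8 to 40.8, 39.2 and 39.6 CPM (log2 fold change 1.43 ± 0.085, adjusted p = 1.52e-08), whereas Tdo2, which opens that pathway, fell from 33.03, 35.7 and 36.8 to 9.39, 10.9 and 12.1 CPM (log2 fold change -1.70 ± 0.089, adjusted p = 5.36e-09). Tat, the tyrosine aminotransferase that glucocorticoids induce, went from 7.18, 9.003 and 6.95 to 17.2, 16.6 and 14.5 CPM (log2 fold change 1.06 ± 0.11, adjusted p = 3.78e-06). The 33 genes of amino acid catabolism gave 12 rises and 8 falls, with a median of 0.035 that became -0.011 under upper quartile scaling. The respiratory chain held the fewest calls for its size among the metabolic lists, with 1 of 27 nuclear-encoded members higher (Cycs, cytochrome c, 0.46) and 3 lower, among them Sdha, of succinate dehydrogenase (-0.20). Without OA replicate 3 the falls numbered 6, and under upper quartile scaling 5.

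Bile acid genes were called about as often as all genes (47.1% against 42.8%), with 1 of 17 higher and 7 lower. The single rise was Abcb11, the canalicular bile salt export pump, from 15.8, 13.9 and 12.7 to 36.9, 35.7 and 26.02 CPM (log2 fold change 1.22 ± 0.12, adjusted p = 1.95e-06). Abcb4, which exports phospholipid across the same membrane, moved the opposite way, from 251 ± 13.3 to 98.1 ± 8.83 CPM (SD, n = 3) with no overlap (log2 fold change -1.35 ± 0.065, adjusted p = 2.40e-09). The hydroxylase Cyp7b1 fell by 0.85. Cyp7a1, the rate-limiting enzyme of bile acid synthesis in liver, had 1 count in 2 control libraries and none in the other 4 libraries, and was not tested.

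The integrated stress response is the program by which cells short of amino acids, or under other stress, phosphorylate eIF2 alpha and translate ATF4, which then induces amino acid synthesis, transport and tRNA charging genes. Of 28 listed genes tested, 24 rose and 1 fell, with a median of 0.56. Atf4 itself (chromosome 15 from 80255184 to 80257541, plus strand) stood at 223, 228 and 230.2 CPM in control and 345, 344 and 344 CPM in OA libraries (log2 fold change 0.60 ± 0.045, adjusted p = 1.49e-07). Asns, asparagine synthetase, stood at 68.8, 65.2 and 68.03 against 142, 137 and 133 CPM (log2 fold change 1.03 ± 0.050, adjusted p = 2.77e-09), Psat1, of serine synthesis, at 82.9, 73.2 and 80.5 against 208, 175 and 173 CPM (log2 fold change 1.23 ± 0.072, adjusted p = 1.31e-08), and Slc7a1, the arginine and lysine transporter, at 17.97, 17.9 and 18.1 against 52.6, 55.5 and 39.3 CPM (log2 fold change 1.45 ± 0.11, adjusted p = 1.14e-07). The pro-apoptotic factor Ddit3 (CHOP) rose from 13.1, 12.8 and 10.99 to 22.9, 21.1 and 21.1 CPM and the pseudokinase Trib3 from 60.3, 63.6 and 63.9 to 108, 109 and 102 CPM (log2 fold changes 0.83 and 0.77). The member that fell was Gdf15, a stress-induced hormone (log2 fold change -0.16 ± 0.062, adjusted p = 0.0486), whose groups overlapped and whose call was lost when any of 5 libraries was left out (control replicate 1, 2 or 3, or OA replicate 1 or 2), with RLE scaling, with no filter and by DESeq2. In these 8 fits its log2 fold change lay between -0.19 and -0.12.

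Cytosolic aminoacyl-tRNA synthetases, which load amino acids on tRNA, rose with the same list, 16 of 19 higher and none lower, with a median of 0.40. Gars stood at 243, 234 and 236 CPM in control and 418, 409 and 416 CPM with OA (log2 fold change 0.80 ± 0.046, adjusted p = 1.24e-08), and Vars at 116, 106 and 106 against 174, 177 and 179 CPM (log2 fold change 0.70 ± 0.051, adjusted p = 1.08e-07). The 3 that did not pass were Dars, Qars and Kars (log2 fold changes 0.10, 0.030 and 0.021), named after their values were seen. Chaperones of the endoplasmic reticulum, which mark the unfolded protein response of that organelle, did not share the rise. Of 20, 2 were higher and 8 lower, and without control replicate 2 or OA replicate 2 the falls numbered 5. Hspa5 (BiP) was at 1029, 1002 and 967 against 1089, 1016 and 1011 CPM, with overlapping groups (log2 fold change 0.055 ± 0.052, adjusted p = 0.415), and Pdia4, a disulfide isomerase, fell (log2 fold change -0.43 ± 0.055, adjusted p = 2.57e-05). Herpud1, of protein degradation at the same membrane, was 1 of the 2 rises, from 56.0, 60.3 and 51.9 to 104, 98.1 and 93.9 CPM (log2 fold change 0.82 ± 0.062, adjusted p = 1.49e-07).

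ATF4 and CHOP are known to bind a composite element part of which reads TGATGNAA, and RefSeq promoter windows (GRCm38.p6, 250 bases before to 50 after a start site) were searched for it on both strands. Windows were found for 24 of the 28 members. These letters were in 7 of their 29 windows (24.1%) and in 3.97% of all 32851 windows. Members were counted whatever their call, and the list was made of genes known for this response. The shares thus describe the list and not an effect of OA. The 250 bases before the start are shown for Chac1, a glutathione-degrading enzyme, and Asns, the 2 called members with the largest changes that hold a match there, written 5′ to 3′ in the direction of the gene, with the match in capitals. Chac1 (log2 fold change 1.14) is read from chr2:119350992-119351241, plus strand, with its match on the opposite strand, and Asns (1.03) from chr6:7693210-7693459, minus strand.
Chac1: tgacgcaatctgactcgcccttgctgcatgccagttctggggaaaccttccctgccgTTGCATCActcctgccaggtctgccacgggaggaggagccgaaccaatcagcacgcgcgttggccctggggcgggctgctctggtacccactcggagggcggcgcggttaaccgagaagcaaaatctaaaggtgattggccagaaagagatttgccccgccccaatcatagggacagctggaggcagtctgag
Asns: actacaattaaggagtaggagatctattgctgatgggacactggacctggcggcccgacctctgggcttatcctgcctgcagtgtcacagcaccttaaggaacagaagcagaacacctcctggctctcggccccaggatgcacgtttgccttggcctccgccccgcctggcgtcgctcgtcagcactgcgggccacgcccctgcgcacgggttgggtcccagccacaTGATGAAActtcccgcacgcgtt

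NRF2 targets went the opposite way. NRF2, encoded by Nfe2l2, is the factor that induces glutathione synthesis, quinone reduction and conjugation under oxidative or electrophilic stress. Of 28 listed genes tested, 23 fell and 1 rose, with a median of -0.42. Nqo1, the quinone reductase (chromosome 8 from 107388225 to 107403206, minus strand), stood at 12.8, 10.9 and 11.1 CPM in control and 8.08, 8.51 and 8.43 CPM with OA (log2 fold change -0.47 ± 0.10, adjusted p = 0.00182). The carbonyl reductase Cbr3 went from 14.6, 19.7 and 20.7 to 6.66, 8.40 and 7.404 CPM (log2 fold change -1.29 ± 0.13, adjusted p = 2.91e-06) and the glutathione transferase Gstm3 from 13.3, 15.8 and 17.1 to 6.03, 6.94 and 7.87 CPM (log2 fold change -1.15 ± 0.12, adjusted p = 3.74e-06). Gclc, the catalytic subunit of glutathione synthesis, fell less, from 422, 479 and 465 to 347, 357 and 424 CPM, with 1 OA library among the control values (log2 fold change -0.28 ± 0.072, adjusted p = 0.00656). The single rise was Hmox1, heme oxygenase, which other stress factors induce as well. It stood at 175, 236 and 213 CPM in control and 224, 339.8 and 306 CPM in OA libraries, with overlapping groups (log2 fold change 0.48 ± 0.12, adjusted p = 0.00596), and DESeq2 did not call it.

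The antioxidant response element, searched as TGACNNNGC on both strands, was in 11 of the 31 windows of the 25 members found (35.5%) and in 12.4% of all windows. Its match in these windows did not overlap a match of the other 2 motifs in any case. The upstream parts for Abcc4, an efflux pump (log2 fold change -0.81), and Gsta3, a glutathione transferase (-0.66), are shown by the same rule. The sterol response element, searched as TCACNCCAC for the cholesterol list, was in 1 of 19 windows of the 16 members found (5.26%) and in 1.24% of all windows. That window belonged to Hmgcs1, which makes the precursor of mevalonate (0.57). The stretches are chr14:118676932-118677181, minus strand for Abcc4, chr1:21240335-21240584, plus strand for Gsta3 and chr13:119690101-119690350, plus strand for Hmgcs1. A match is a string of letters and does not show that a factor binds there. As for the first motif, members were counted whatever their call, and the shares describe the lists and not an effect of OA.
Abcc4: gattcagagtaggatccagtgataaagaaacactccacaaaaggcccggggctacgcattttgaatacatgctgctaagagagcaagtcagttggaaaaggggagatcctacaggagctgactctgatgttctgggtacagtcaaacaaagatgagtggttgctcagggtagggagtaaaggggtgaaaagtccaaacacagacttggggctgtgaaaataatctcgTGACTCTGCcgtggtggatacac
Gsta3: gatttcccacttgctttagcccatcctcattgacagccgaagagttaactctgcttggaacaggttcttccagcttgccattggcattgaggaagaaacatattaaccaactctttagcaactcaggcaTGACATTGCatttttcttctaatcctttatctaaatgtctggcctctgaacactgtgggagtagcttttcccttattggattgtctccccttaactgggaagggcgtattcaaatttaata
Hmgcs1: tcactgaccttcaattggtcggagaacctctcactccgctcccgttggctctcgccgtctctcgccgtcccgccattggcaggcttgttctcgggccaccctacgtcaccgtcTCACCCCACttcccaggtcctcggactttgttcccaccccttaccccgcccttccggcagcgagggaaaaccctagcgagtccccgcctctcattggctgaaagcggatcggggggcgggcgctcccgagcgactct

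Other stress programs were mixed. Metallothioneins, small proteins that bind zinc and are induced by metals and glucocorticoids, rose strongly. Mt1 (chromosome 8 from 94179082 to 94180327, plus strand) stood at 202, 248 and 238 CPM in control and 723, 787 and 811 CPM with OA (log2 fold change 1.75 ± 0.073, adjusted p = 4.66e-10), and Mt2 at 126, 156 and 158 against 565, 566 and 586 CPM (log2 fold change 1.97 ± 0.073, adjusted p = 1.31e-10). The list of metallothioneins and iron handling held 5 rises and 7 falls among 16 genes, with the iron exporter Slc40a1 and the iron sensor Hfe among the falls (log2 fold changes -0.52 and -0.69). Among p53 targets and cell death genes, 9 of 20 rose and 4 fell, and 5 rose without control replicate 1. Pmaip1 (NOXA), a pro-apoptotic BH3 protein, went from 5.07, 4.19 and 3.16 to 14.7, 14.2 and 11.8 CPM (log2 fold change 1.72 ± 0.15, adjusted p = 5.54e-07), and Cdkn1a (p21), the cell cycle inhibitor, from 242, 232 and 249 to 319, 341 and 325 CPM (log2 fold change 0.44 ± 0.050, adjusted p = 6.55e-06). Hypoxia-inducible genes rose in 11 of 14 cases and fell in none. Bnip3, of mitochondrial removal, stood at 307, 361 and 385 CPM in control and 541, 611 and 613 CPM in OA libraries (log2 fold change 0.74 ± 0.075, adjusted p = 2.63e-06), and the prolyl hydroxylase Egln3 at 104, 121 and 124 against 169, 180.2 and 181 CPM (log2 fold change 0.60 ± 0.063, adjusted p = 3.69e-06). The count of 11 became 7 under upper quartile scaling, without control replicate 1 or without OA replicate 2. The inducible heat shock gene Hspa1b was at 23.2, 22.5 and 25.02 CPM in control and 24.9, 23.4 and 22.6 CPM with OA, with overlapping groups.

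Of 25 chemokine, cytokine and NF-kB genes, 15 rose and 5 fell, with a median of 0.49. Ccl2, which attracts monocytes (chromosome 11 from 82035571 to 82037453, plus strand), stood at 102, 93.8 and 86.4 CPM in control and 362, 319.5 and 350.2 CPM with OA (log2 fold change 1.87 ± 0.066, adjusted p = 9.23e-11), with the groups far apart. The neutrophil attractants Cxcl2 and Cxcl1 rose too, Cxcl2 from 2.96, 2.62 and 2.53 to 10.5, 8.34 and 7.66 CPM (log2 fold change 1.71 ± 0.16, adjusted p = 9.41e-07) and Cxcl1 from 30.4, 27.4 and 28.5 to 49.3, 38.04 and 49.3 CPM (log2 fold change 0.66 ± 0.090, adjusted p = 3.83e-05). Il1b, a macrophage cytokine named after its values were seen, went from a mean of 0.156 to 2.16 CPM (adjusted p = 1.05e-06). Its control mean lay at the floor, so no fold is given. Kupffer cell markers moved in both directions beside these genes. Marco went from 1.15, 1.19 and 1.26 to 8.31, 6.29 and 6.17 CPM (log2 fold change 2.51 ± 0.19, adjusted p = 1.43e-07), and Lyz2 and Adgre1 rose by 1.67 and 1.41, whereas Clec4f, Vsig4, Cd5l, C1qa, C1qb and C1qc fell by 0.47 to 1.28, so that 3 of 11 markers tested were higher and 6 lower. Their part in the rise of chemokines was not tested. In these bulk libraries, fewer cells of a type and less RNA per cell cannot be told apart.

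Acute-phase proteins, which liver secretes under interleukin-6 and interleukin-1, rose in 12 of 26 cases and fell in 3 (6 under upper quartile scaling). Lcn2, an iron-sequestering lipocalin (chromosome 2 from 32384633 to 32388252, minus strand), stood at 236, 275 and 259 CPM in control and 1005, 1173 and 1236 CPM in OA libraries (log2 fold change 2.15 ± 0.077, adjusted p = 9.23e-11). Serpina3m stood at 42.6, 40.8 and 44.2 against 271, 256 and 273 CPM (log2 fold change 2.65 ± 0.054, adjusted p = 2.45e-13). The pentraxins Apcs and Crp, named after their values were seen, rose by 1.81 and 1.48 (adjusted p = 6.50e-10 and 4.66e-10). The classical marker Saa1 did not follow, at 231, 223 and 247 against 215, 240.2 and 258 CPM, with overlapping groups (log2 fold change 0.025 ± 0.064, adjusted p = 0.775). The fibrinogen chain Fgg and the constitutive serum amyloid Saa4 fell by 0.36 and 0.63.

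Interferon-response genes were lower in 15 of 23 cases and higher in none, with a median of -0.33. Irf7, a factor of the interferon response, stood at 193, 208 and 212 CPM in control and 116, 147 and 150.04 CPM with OA (log2 fold change -0.57 ± 0.079, adjusted p = 4.68e-05). Ifit3 varied more between replicates, at 39.7, 44.4 and 26.1 CPM in control and 11.5, 24.1 and 14.8 CPM in OA libraries (log2 fold change -1.12 ± 0.21, adjusted p = 0.000646). The interferon-induced chemokine Cxcl10 also fell, with overlapping groups, from 16.97, 16.01 and 9.65 to 7.74, 9.97 and 9.05 CPM (log2 fold change -0.66 ± 0.17, adjusted p = 0.00709). Complement and coagulation genes were lower in 20 of 34 cases and higher in 4, with a median of -0.20. C3, the central complement protein, stood at 3080.0, 3169.6 and 2936 CPM in control and 2402, 2375 and 2241 CPM with OA (log2 fold change -0.39 ± 0.053, adjusted p = 4.57e-05), and Klkb1, prekallikrein, fell most, from 11.3, 9.43 and 8.63 to 5.35, 3.96 and 4.58 CPM (log2 fold change -1.08 ± 0.14, adjusted p = 3.11e-05). F11, coagulation factor XI, was the largest of the 4 rises (log2 fold change 0.62 ± 0.077, adjusted p = 1.77e-05).

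**Figure D4:**
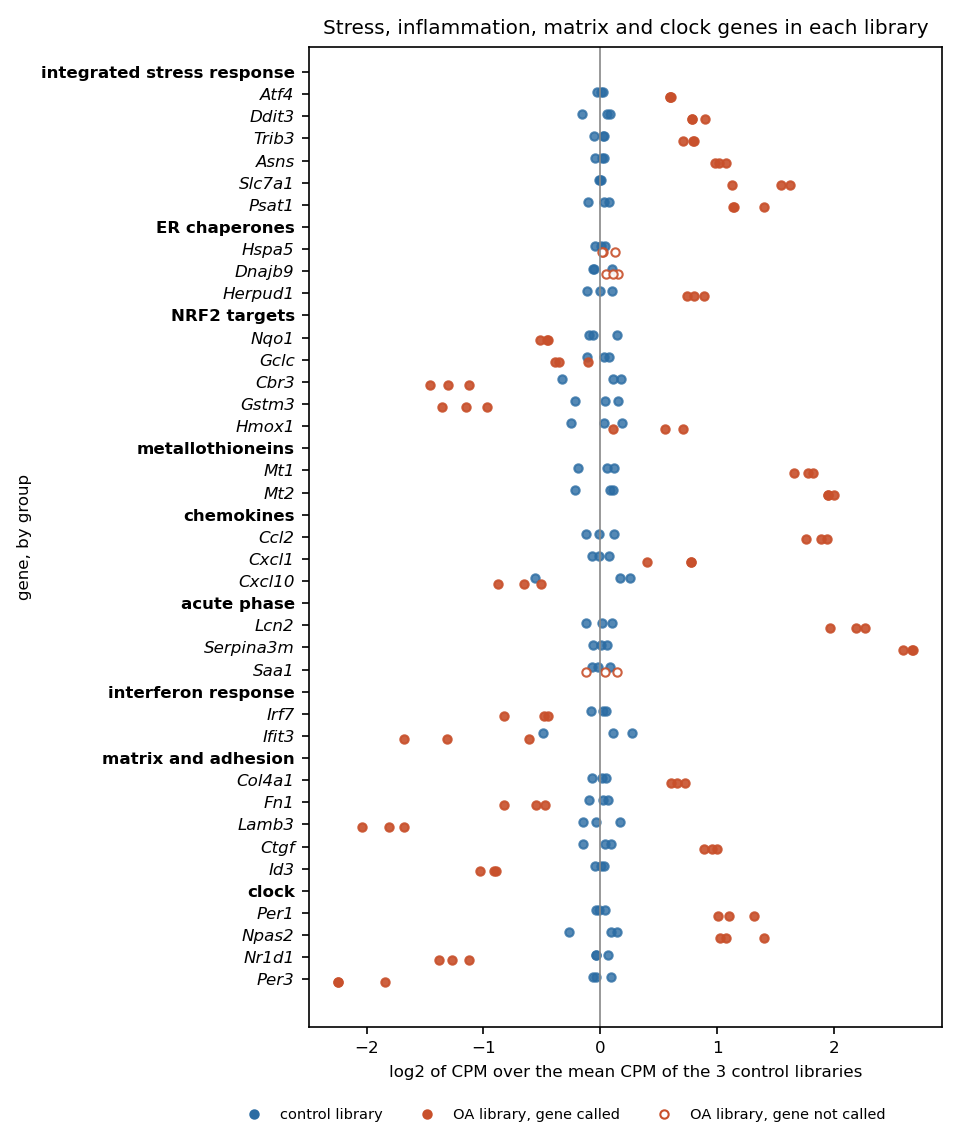
log2 of CPM over the mean of the 3 control libraries for stress, inflammation, matrix and clock genes, with 1 point per library, control in blue and OA in red, with open OA points where the gene was not called. Integrated stress response genes, metallothioneins, Ccl2, Lcn2 and Serpina3m lie to the right, and NRF2 targets other than Hmox1, interferon genes, Lamb3, Id3, Nr1d1 and Per3 to the left. Hspa5, Dnajb9 and Saa1 stay near 0.

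Of 30 collagen, laminin and basement membrane genes, 4 rose and 13 fell, with a median of -0.35. Col4a1 stood at 93.3, 91.4 and 86.1 CPM in control and 149, 137 and 142 CPM with OA (log2 fold change 0.66 ± 0.052, adjusted p = 2.16e-07), and Col4a2, its partner chain in basement membranes, rose by 0.38 (named after its values were seen). Nid1, nidogen, which links collagen IV to laminin, rose from 219, 218 and 180.5 to 325, 312 and 249 CPM (log2 fold change 0.52 ± 0.090, adjusted p = 0.000344). Fn1, fibronectin (chromosome 1 from 71585520 to 71653200, minus strand), which links cells to matrix, fell from 4188, 4058 and 3731 to 2871, 2722 and 2259.6 CPM (log2 fold change -0.61 ± 0.078, adjusted p = 2.33e-05). Lamb3, a laminin 332 chain, fell from 43.2, 37.4 and 34.7 to 12.01, 9.32 and 10.95 CPM (log2 fold change -1.83 ± 0.10, adjusted p = 8.91e-09). The fibrillar collagens Col1a1, Col1a2 and Col3a1, which stellate cells make, had means between 1.08 and 3.75 CPM in the 2 groups, and of these, named after their values were seen, Col1a1 was called (log2 fold change -0.85, adjusted p = 0.0224).

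Matrix proteases, cross-linkers and inhibitors gave 9 rises and 10 falls among 23. Lox, the collagen cross-linker, stood at 1.05, 0.857 and 1.43 CPM in control and 5.86, 4.06 and 5.19 CPM with OA (log2 fold change 2.15 ± 0.22, adjusted p = 3.42e-06), and the collagenase Mmp13 at 2.36, 1.33 and 0.927 against 5.86, 4.33 and 5.19 CPM (log2 fold change 1.76 ± 0.26, adjusted p = 7.70e-05). The membrane-bound protease Mmp15 fell from 27.4, 26.7 and 27.3 to 11.95, 11.4 and 13.99 CPM (log2 fold change -1.12 ± 0.082, adjusted p = 1.16e-07), and the inhibitor Timp1 fell by 0.89. Of 30 integrin and actin genes, 13 rose and 5 fell. The tropomyosin Tpm4 was among the rises (log2 fold change 0.49 ± 0.046, adjusted p = 1.23e-06), and the intermediate filament Vim among the falls, from 1002, 991 and 954 to 594, 634 and 595 CPM (log2 fold change -0.69 ± 0.050, adjusted p = 1.08e-07). Targets of TGF-beta and YAP gave 7 rises and 6 falls among 20, with a median of 0.033 that became -0.014 under upper quartile scaling and -0.016 without OA replicate 1. Ctgf, induced by both, stood at 231, 239 and 203 CPM in control and 436, 448 and 416 CPM with OA (log2 fold change 0.95 ± 0.061, adjusted p = 3.57e-08), while the BMP-responsive factors Id3 and Id2 fell, Id3 from 109, 103 and 107 to 57.3, 52.1 and 56.4 CPM (log2 fold change -0.94 ± 0.054, adjusted p = 1.18e-08) and Id2 by 0.91.

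Differentiation was described by liver factors, secreted proteins, drug metabolism, progenitor markers, proliferation and the clock. Hepatocyte transcription factors and nuclear receptors were lower in 13 of 30 cases and higher in 5. Hnf4a, the central hepatocyte factor, was at 150.3, 156 and 148 CPM in control and 147, 135 and 139.9 CPM with OA (log2 fold change -0.10 ± 0.050, adjusted p = 0.107), and upper quartile scaling called it lower (-0.15). Cebpa fell from 81.1, 81.2 and 88.0 to 65.2, 56.3 and 62.7 CPM (log2 fold change -0.44 ± 0.061, adjusted p = 4.80e-05). Secreted proteins gave 9 rises and 8 falls among 31. Alb, albumin, stood at 27144, 28605 and 28549 CPM in control and 32253, 31364 and 33157 CPM with OA (log2 fold change 0.20 ± 0.055, adjusted p = 0.00916). Igfbp1, a carrier of insulin-like growth factors, rose from 282, 309 and 319 to 747, 740.3 and 819 CPM (log2 fold change 1.34 ± 0.060, adjusted p = 1.00e-09) and Apoa1, of high-density lipoprotein, from 1044, 1014 and 1017 to 1947, 1862 and 1879.7 CPM (log2 fold change 0.89 ± 0.049, adjusted p = 8.91e-09). Apoa5, a regulator of triglyceride clearance, fell from 138, 147 and 155 to 66.1, 80.0 and 91.0 CPM (log2 fold change -0.89 ± 0.086, adjusted p = 1.61e-06).

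Drug metabolism genes were lower more often than higher. Of 32 conjugating enzymes and transporters, 21 fell and 3 rose (Sult1a1, Sult1d1 and, named after its values were seen, Por), with a median of -0.34. Ugt2b5, a glucuronosyltransferase, stood at 75.9, 79.7 and 86.9 CPM in control and 40.01, 49.0 and 50.95 CPM with OA (log2 fold change -0.79 ± 0.079, adjusted p = 2.32e-06). P450 genes of families 1 to 3 fell in 11 of 32 cases (7 without control replicate 2) and rose in 6. Besides Cyp2b10, the largest rise was that of Cyp2c70, which makes the muricholic acids of mouse bile, from 24.5, 22.5 and 21.7 to 119, 110.2 and 105.5 CPM (log2 fold change 2.29 ± 0.065, adjusted p = 7.24e-12). Cyp2u1, a fatty acid hydroxylase, was among the falls, from 6.73, 5.29 and 6.15 to 2.05, 1.90 and 1.70 CPM (log2 fold change -1.69 ± 0.17, adjusted p = 2.39e-06). Cyp3a11 and Cyp2e1, large contributors to drug oxidation, were not called, with log2 fold changes of 0.13 and -0.18 (adjusted p = 0.0741 and 0.131). Cyp3a11 was called without OA replicate 3 (0.15), and Cyp2e1 without control replicate 3 (-0.26) or OA replicate 1 (-0.26). Reads shared between members of the Cyp2c, Ugt2b and Gst families could not be separated here.

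Progenitor and biliary markers gave 8 rises and 4 falls among 22. Krt20 rose from 2.36, 3.10 and 3.03 to 13.5, 19.2 and 15.6 CPM (log2 fold change 2.50 ± 0.15, adjusted p = 2.00e-08) and Sox9 from 34.4, 33.3 and 29.1 to 46.7, 58.8 and 40.9 CPM (log2 fold change 0.60 ± 0.11, adjusted p = 0.000429), while Krt19, the biliary keratin, was at 7.33, 6.91 and 6.49 against 8.14, 8.45 and 7.66 CPM (log2 fold change 0.23 ± 0.11, adjusted p = 0.109). Spp1, osteopontin (chromosome 5 from 104435118 to 104441050, plus strand), fell from 607, 679 and 553 to 187, 204 and 224 CPM (log2 fold change -1.58 ± 0.077, adjusted p = 2.77e-09). It made up most of the summed cholangiocyte markers, which ran from 607.4 to 738.5 CPM in control and from 259.1 to 290.0 CPM in OA libraries. Of 20 proliferation genes, 8 fell (4 without control replicate 1, 5 without control replicate 2 or OA replicate 2) and 2 rose. Ccnd1, cyclin D1, went from 8.03, 6.43 and 6.402 to 3.98, 4.01 and 3.55 CPM (log2 fold change -0.85 ± 0.14, adjusted p = 0.000257), whereas Myc rose from 126, 119 and 120.4 to 166, 168 and 161 CPM (log2 fold change 0.44 ± 0.048, adjusted p = 4.98e-06).

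Circadian clock genes moved in both directions. In the clock, Arntl and Clock or Npas2 activate the Per, Cry and Nr1d genes and the output factors Dbp, Tef and Hlf, whose products feed back on the activators. Of 17 genes, 6 rose and 8 fell. Npas2 stood at 3.61, 3.76 and 2.82 CPM in control and 8.99, 7.15 and 6.94 CPM with OA (log2 fold change 1.18 ± 0.16, adjusted p = 3.06e-05), and Arntl rose by 0.80 (chosen after its values were seen). The repressor Nr1d1 (chromosome 11 from 98767932 to 98775333, minus strand) went from 11.5, 12.3 and 11.5 to 4.89, 5.42 and 4.52 CPM (log2 fold change -1.25 ± 0.11, adjusted p = 6.85e-07), Per3 from 11.2, 10.3 and 10.1 to 2.22, 2.22 and 2.93 CPM (log2 fold change -2.09 ± 0.14, adjusted p = 4.67e-08) and Tef from 66.4, 59.4 and 63.0 to 22.9, 23.3 and 26.2 CPM (log2 fold change -1.38 ± 0.068, adjusted p = 2.83e-09). Dbp was low and fell further, from 2.16, 3.05 and 3.58 to 0.455, 0.488 and 0.411 CPM (log2 fold change -2.69 ± 0.30, adjusted p = 5.96e-06). The period gene Per1, unlike Per3, rose from 15.2, 15.7 and 14.9 to 37.96, 32.7 and 30.7 CPM (log2 fold change 1.15 ± 0.084, adjusted p = 1.15e-07). All libraries were taken at 1 time of exposure, so a shift in phase and a change in level cannot be told apart.

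Whether the drug altered the OA response was tested for the 20 leading genes as the difference between BBR+OA against BBR and OA against control, 2 comparisons that share no library. All 20 moved the same way with the drug as without it and were called in both. Their call without the drug follows from how they were chosen. The share of all genes called with the drug, or moving the same way, is not given here, so these counts have no background. The difference was called in 6 of the 20, beside 12.2% of all 12742 genes tested. Cps1 rose more with the drug (log2 fold change 4.29, against 3.32 without it, difference 0.98, SE 0.15, adjusted p = 0.000352), and so did Cdo1 (3.58 against 3.20, difference 0.39, SE 0.089, adjusted p = 0.00716). Mean levels without OA were lower with BBR than in control for both (Cps1 9.71 against 17.9 CPM, Cdo1 26.3 against 35.4 CPM). With OA the means with and without BBR were 193 and 178 CPM for Cps1, and 315 and 326 CPM for Cdo1. Levels of the BBR groups were scaled over 12 libraries and the others over 6. The other 4 fell less with the drug. Serpina7 fell by 1.44 with it and by 2.42 without it (difference 0.99, SE 0.20, adjusted p = 0.00268), and Abca8a by 1.11 and 2.32 (difference 1.22, SE 0.27, adjusted p = 0.00559). For Tcea3 the falls were 0.97 and 1.93 (adjusted p = 0.000560) and for Abcc12 1.32 and 1.94 (adjusted p = 0.0263). These 4 also started lower with BBR than in control, at 81.9 against 199.8 CPM for Serpina7 and 3.51 against 7.30 for Abca8a. For Tcea3 the means were 23.1 against 42.4 and for Abcc12 10.5 against 19.5 CPM. With OA the means with and without BBR were 30.4 and 37.2 CPM for Serpina7 and 1.64 and 1.46 for Abca8a. For Tcea3 they were 11.8 and 11.2, and for Abcc12 4.18 and 5.04 CPM. The part of the starting level was not tested. Since the genes were chosen by their size without the drug, that size is not independent of the choice. Without control replicate 3 (0.59), OA replicate 1 (0.47), BBR replicate 3 (0.61), or when either the second (0.52) or the third (0.63) BBR+OA library was left out, the difference of Abcc12 was not called.

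**Figure D5:**
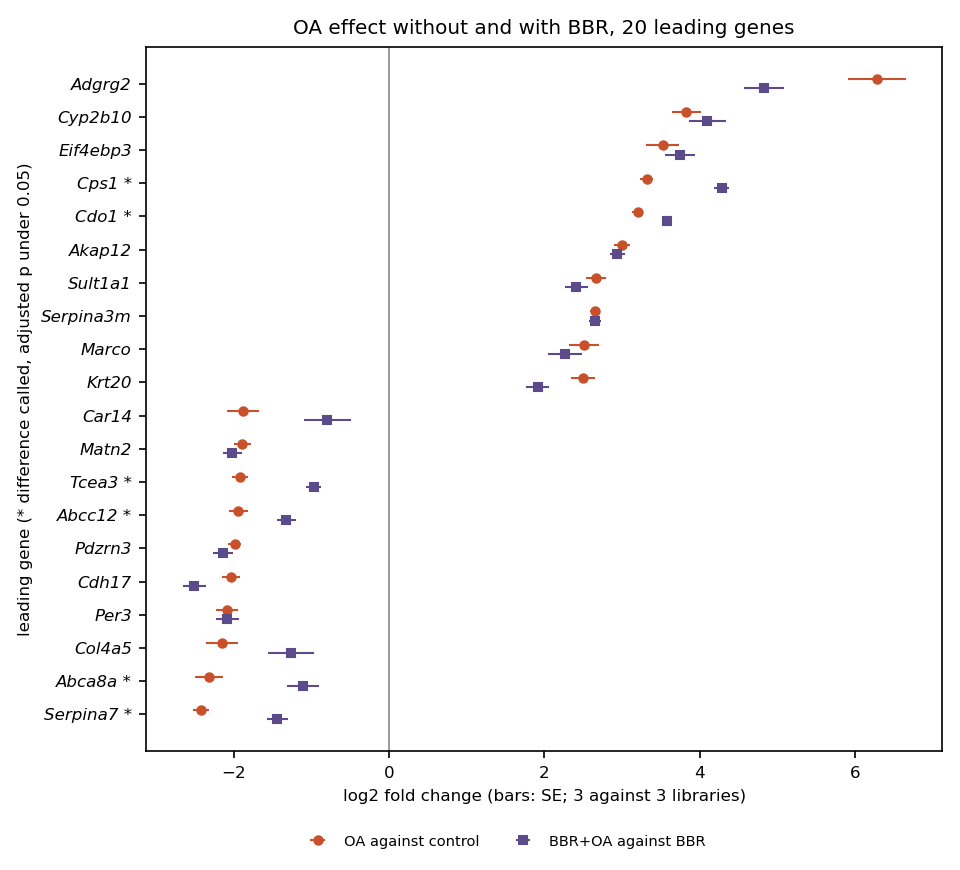
log2 fold changes with SE of the 20 leading genes for OA against control (circles) and BBR+OA against BBR (squares), each of 3 against 3 libraries, with an asterisk where the difference was called. The control level of Adgrg2 lay near the floor, so its place is poorly determined. Circles and squares lie on the same side of 0 for each gene, farthest apart in the called genes for Abca8a, 2.32 and 1.11 below 0.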

How the data were processed

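Gene expression was measured by RNA sequencing of polyadenylated RNA, with 1 library per sample and 3 libraries per group. The authors deposited for each library an estimated count per gene, unscaled by depth, and an FPKM value, scaled by transcript length and library size. Reads were placed on mm10 per the labels, and the aligner, counting program and strand setting are not given in the sources used here. Without a stated strand setting, reads of overlapping and antisense genes cannot be told apart, and near-identical genes may share reads. Of 22471 features, 2862 held a fractional count, and counts were rounded to whole numbers. FPKM values were used only to set levels of different genes side by side. Gene names came from the files, and coordinates from GENCODE release 21 of the mouse on GRCm38 (99.71% of the Ensembl features matched).

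Groups and replicate numbers came from the sample titles. OA was compared with control in 6 libraries by edgeR 4.0.16 (R 4.3.3) with a quasi-likelihood F test, two-sided, after filterByExpr (minimum count 10) and TMM scaling, with Benjamini-Hochberg adjustment and a threshold of 0.05. Every adjusted p for OA against control is from this test. The difference of the OA effect with and without BBR was the interaction term of the same kind of model over all 12 libraries. Its adjusted p values come from that fit, with adjustment over 12742 genes. BBR+OA against BBR was fitted in its own 6 libraries by the same method. The scripts were tested on simulated counts. Alternatives were RLE and upper quartile scaling, 2 other filters, DESeq2 1.42.0, limma-voom (limma 3.58.1), all 12 libraries in 1 fit, a replicate block, fold thresholds and leaving out each library. Replicate libraries differed by more than sampling noise (chi-square per degree of freedom 4.18 to 7.26), so none was counted as a duplicate.

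Members and gene lists were chosen with earlier results of these data known. Genes named are the leading genes, 10 in each direction with a mean of 5 CPM or more in 1 group and no overlap, the 2 largest called rises and falls of each list, and marker genes chosen as anchors of each list. Any other gene is said to be chosen after its values were seen, apart from the cell marker lists and the promoters shown. Promoter windows came from RefSeq (GRCm38.p6), and members without a window were left out. No fold change or p-value made by the authors was used. Results for some genes are not reported here.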

Additional observations from a re-analysis of the deposited data

Results flagged for a closer look

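In 6 of the 20 leading genes, the OA effect differed between cells with and without BBR, by the interaction term of edgeR's quasi-likelihood test with Benjamini-Hochberg adjustment over 12742 genes, of which 12.2% were called. The 20 genes were chosen by the OA effect without BBR, which is 1 side of this difference. The difference (with BBR minus without BBR, log2) was 0.98 for Cps1 (adjusted p = 0.000352) and 0.39 for Cdo1 (adjusted p = 0.00716), which both rose more with the drug. It was 0.99 for Serpina7 (adjusted p = 0.00268), 1.22 for Abca8a (adjusted p = 0.00559), 0.96 for Tcea3 (adjusted p = 0.000560) and 0.63 for Abcc12 (adjusted p = 0.0263), 4 genes that fell less with the drug. Each of the 6 had a lower mean CPM with BBR alone (scaled over 12 libraries) than in control (scaled over 6 libraries). Neither this gap nor the part of the starting level was tested. The call of Abcc12 was lost when any of 5 libraries was left out (0.47 to 0.63). Groups of 3 libraries are too small for a check of single samples that stand apart.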

How the results depend on the processing

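For OA against control, the 48 values of the counts of called, higher and lower genes stayed within 1.5 times the main counts in 42 cases. The other 6 came from fold thresholds, with 617 called, 216 higher and 401 lower when a 2-fold change was required as well, and 624, 218 and 406 with an unadjusted p under 0.05 and a 2-fold change. DESeq2 called 4589 genes (2379 higher and 2210 lower). Leaving out 1 library gave 4270 called (without control replicate 2) to 5273 (without OA replicate 3), 2136 to 2676 higher and 2134 to 2597 lower. Of the 5311 calls, 78.5 to 99.9% were also made under each refit, all in the same direction. Upper quartile scaling moved the median log2 fold change of all genes from -0.0060 to -0.052.

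With 1 library left out, the interaction counts ran from 1027 called (without OA replicate 2, and 1028 without BBR replicate 2) to 1679 (without OA replicate 3), from 503 to 922 with a positive term and from 452 to 757 with a negative term, and the replicate block gave 2265 called, of which 1236 terms were positive and 1029 negative. The differences for Cps1, Cdo1, Serpina7, Abca8a and Tcea3 were called under each alternative run. Among the other leading genes, the difference became called for Krt20 with the replicate block (-0.58), Col4a5 without BBR+OA replicate 2 (1.22) and Car14 under 5 alternatives (1.09 to 1.38). It was also called for Adgrg2 without control replicate 2, a fit that rests on 0 and 1 control counts.

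Of 205 named genes tested, 19 changed a call in some alternative and none changed direction past the threshold. The medians of 8 lists changed sign in some alternative, each with a main median of at most 0.06 in size. Besides those given above, the median of heat shock and mitochondrial chaperones was 0.057 and ran from -0.0067 without OA replicate 1 to 0.094 without OA replicate 2, and the cause was not tested. The respiratory chain and the circadian clock were the others.

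The labels do not say that a replicate number marks a shared mouse or day, and the libraries were not treated as paired. The deviations from group means of same-numbered libraries correlated at 0.093, 0.026 and 0.11, and each library correlated best with its own number, a hint from the data and not from the design. With the number as a replicate block, 6628 genes were called (3333 higher and 3295 lower), 7 glycolysis genes were lower, 5 respiratory chain genes were higher and 5 lower, and 6 acute-phase genes were lower. The replicate block also called Hnf4a (-0.11), Cyp2e1 (-0.18) and Slc2a2 (-0.12) lower and Cyp3a11 (0.13) higher.

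Depth limits genes near the floor. 3 libraries per group, a single time and dose, an unstated albumin control and an unstated origin of replicates limit what the p-values cover. Bulk RNA does not separate cell types, and polyadenylated RNA levels do not give protein levels.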

Other observations

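Of 17 heat shock and mitochondrial chaperone genes, 7 rose and 1 fell, and the median was near 0 (0.057, and -0.0067 without OA replicate 1). They were called about as often as all genes (47.1% against 42.8%). The largest rise was that of the small heat shock protein gene Hspb8 (log2 fold change 0.46 ± 0.057, adjusted p = 1.73e-05). The risers included Hspd1 and Hspe1, which fold imported proteins, Hspa9, which pulls them in, and Lonp1, a matrix protease, with log2 fold changes of 0.27, 0.21, 0.28 and 0.31 (adjusted p = 0.000459, 0.00453, 0.000260 and 0.000133). These mitochondrial genes were chosen after their values were seen, as were the next ones. Nr0b2 (SHP), a repressor of bile acid synthesis that FXR induces, and Nr1h4, which encodes FXR, both fell, with log2 fold changes of -1.25 and -0.61 (adjusted p = 0.00108 and 0.000784). The bile salt export pump Abcb11 rose, as given above (log2 fold change 1.22). Smad6, an inhibitor that BMP signaling induces, fell beside the Id genes (log2 fold change -1.59 ± 0.20, adjusted p = 2.12e-05).

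Slc2a2, the liver glucose transporter, and G6pc each had replicate 2 as the lowest and replicate 3 as the highest library in both groups. Slc2a2 stood at 58.6, 50.9 and 77.0 CPM in control and 52.5, 41.9 and 78.4 CPM in OA libraries. It was not called by the main test and was called lower without OA replicate 3 (-0.40).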
